A study of Mus musculus with 2 samples.

Results

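B cells were a small minority of the CD45-positive cells sorted from mammary tumours of mice that had received the cell line PyMT-N or PyMT-M. A cell was counted as a B cell when it held at least 3 unique molecular identifiers (UMIs, each standing for 1 captured RNA molecule) of Cd79a, Cd79b and Ms4a1 together, at least 1 of them from Cd79a. It also had no UMI of Cd3d, Cd3e or Cd3g, and fewer than 50 UMIs per 10000 of the complement genes C1qa, C1qb and C1qc and of the neutrophil genes S100a8 and S100a9. This rule found 109 cells among 12351 cells that passed the quality limits, 60 of 4994 in the PyMT-N library and 49 of 7357 in the PyMT-M library. The cells were thus chosen by their measured UMIs of these genes, and the levels of those genes are given below as a description.

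The tumours were started by injecting line cells into the mammary gland and were collected after 4 weeks, when their diameter was 0.7 to 1 cm. PyMT refers to the polyoma middle T oncogene, and the labels give neither the meaning of N and M nor the strain of the host mice. Live cells were sorted on CD45, a marker of leukocytes, and the 5′ ends of their transcripts were sequenced by a droplet method. There was 1 library per line, with 5020 barcodes and a median of 1955 UMIs in PyMT-N, and 7476 barcodes and a median of 5069.5 UMIs in PyMT-M. The lines could not be tested against each other, differences between them lack any replicate check, and intervals are given at 95% and cover counting error only. The libraries shared 60 barcodes, and 1 PyMT-N B cell and 0 PyMT-M B cells carried a shared one.

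A B cell senses antigen through an immunoglobulin held at its surface by the signalling chains Cd79a and Cd79b. In the bone marrow its precursor rearranges the immunoglobulin genes with the Rag enzymes, and a surrogate light chain built from the Vpreb and Igll1 proteins stands in until a true light chain is made. Mature naive B cells carry IgM and IgD, present antigen on MHC class II molecules and circulate through lymphoid follicles. Those that answer an antigen can enter a germinal centre, switch class and become plasma cells.

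Igll1 and Vpreb3 carry a difference described below, so the 250 bases before the start site of each are shown, taken from RefSeq on build GRCm38.p6. Igll1, the lambda5 part of the surrogate light chain, is transcribed from the minus strand, where these bases lie at chr16:16863986-16864235. Vpreb3, a relative of the Vpreb chains, is on the plus strand, with these bases at chr10:75948050-75948299. No exon of the GENCODE annotation overlapped either stretch. Capitals mark CCCNNGGG, a palindromic motif of the early B cell factor Ebf1, in Igll1 and the octamer ATTTGCAT, a motif of the Oct factors, in Vpreb3.
Igll1: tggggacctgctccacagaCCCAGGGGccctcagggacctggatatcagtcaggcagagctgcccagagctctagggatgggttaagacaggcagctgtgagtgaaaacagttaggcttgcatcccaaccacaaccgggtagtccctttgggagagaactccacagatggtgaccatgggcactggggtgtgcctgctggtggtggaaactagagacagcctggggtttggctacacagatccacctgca
Vpreb3: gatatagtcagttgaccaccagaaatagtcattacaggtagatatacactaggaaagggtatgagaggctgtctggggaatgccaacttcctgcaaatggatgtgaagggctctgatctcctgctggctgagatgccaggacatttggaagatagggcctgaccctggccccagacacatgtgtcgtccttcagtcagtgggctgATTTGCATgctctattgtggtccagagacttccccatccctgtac
Searched on both strands, the Ebf1 motif stood in the 250 bases before 13.4% of 27025 mouse genes and the octamer before 1.81%. Of 9 B cell progenitor genes listed, 8 matched the RefSeq table, 1 of them, Igll1, held the Ebf1 motif and 0 held the octamer. Vpreb3 was on the list of 20 B lineage identity genes instead. Of these 17 matched, 3 held the Ebf1 motif and 1, Vpreb3, held the octamer. These matches describe letters and say nothing of binding.

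B cells were 1.2% of the PyMT-N cells kept (interval 0.918 to 1.54%) and 0.666% of the PyMT-M cells kept (0.493 to 0.880%). The libraries differed widely in their other cells: neutrophils by the S100a8 and S100a9 limit numbered 2883 in PyMT-N and 43 in PyMT-M, and macrophages rich in C1q numbered 500 and 3767. When cells above the S100a8 and S100a9 limit were left out of the denominator, B cells were 2.95% of PyMT-N cells and 0.670% of PyMT-M cells. No matching step left out the C1q macrophages, which were more numerous in PyMT-M. Among B and T cells together, B cells were 28.7% in PyMT-N (60 of 209, interval 22.7 to 35.4%) and 6.94% in PyMT-M (49 of 706, 5.18 to 9.07%). The higher share in PyMT-N thus stood beside many fewer T cells, 149 in PyMT-N and 657 in PyMT-M.

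The B cells were shallow. Their UMIs ran from 652 to 14457 with a median of 1567.5 in PyMT-N, and from 1115 to 5330 with a median of 1858 in PyMT-M. All of them together held 130521 UMIs in PyMT-N and 98115 in PyMT-M. At the edge of the rule, 5 PyMT-N cells and 2 PyMT-M cells had exactly 3 marker UMIs, while 3 PyMT-N cells and 0 PyMT-M cells met every other condition with 2. Of cells with 3 or more marker UMIs, the demand for Cd79a removed 2 in PyMT-N and 108 in PyMT-M, and the C1q limit then removed 7 and 18.

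B cell genes outside the rule were found in most or many of these cells. Ebf1, the transcription factor that sets the B lineage, was seen in 55 of 60 PyMT-N B cells and 46 of 49 PyMT-M B cells, against 0 of 149 PyMT-N T cells and 2 of 657 PyMT-M T cells. Its level was 1548 CPM (UMIs per 1000000 UMIs of the summed cells) in PyMT-N B cells and 1447 in PyMT-M B cells. Pax5, the factor that holds B cell identity, gave 17 UMIs in PyMT-N and 15 UMIs in PyMT-M. T cells were called by UMIs of Cd3d, Cd3e and Cd3g. The T cells, C1q macrophages and neutrophils used for comparison had to hold no UMI of Cd79a, Cd79b or Ms4a1. That demand favours low levels of other B cell genes in these classes.

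By the rule for profile genes, the 20 genes that stood highest over T cells, C1q macrophages and neutrophils of the same library were Cd79a, Iglc2, Cd79b, Ebf1, Iglc3, Ms4a1, Vpreb3, Mzb1, Ly6d, Iglc1, Iglv1, Fcmr, Igkc, H2-Ob, Ighd, H2-DMb2, Ighm, Foxp1, Ccr7 and the predicted gene Gm8369. Of these, 3 were part of the rule, and by definition the other classes held no UMI of them. All 20 were ranked in the cells the rule chose, so their order is a description. Ly6d, a lymphoid surface protein, was at 2666 CPM in PyMT-N B cells and 2548 in PyMT-M B cells, with 0.07 as the log2 ratio of PyMT-N over PyMT-M. Mzb1, an endoplasmic reticulum chaperone of immunoglobulin assembly, was at 621 and 469 CPM.

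**Figure D1:**
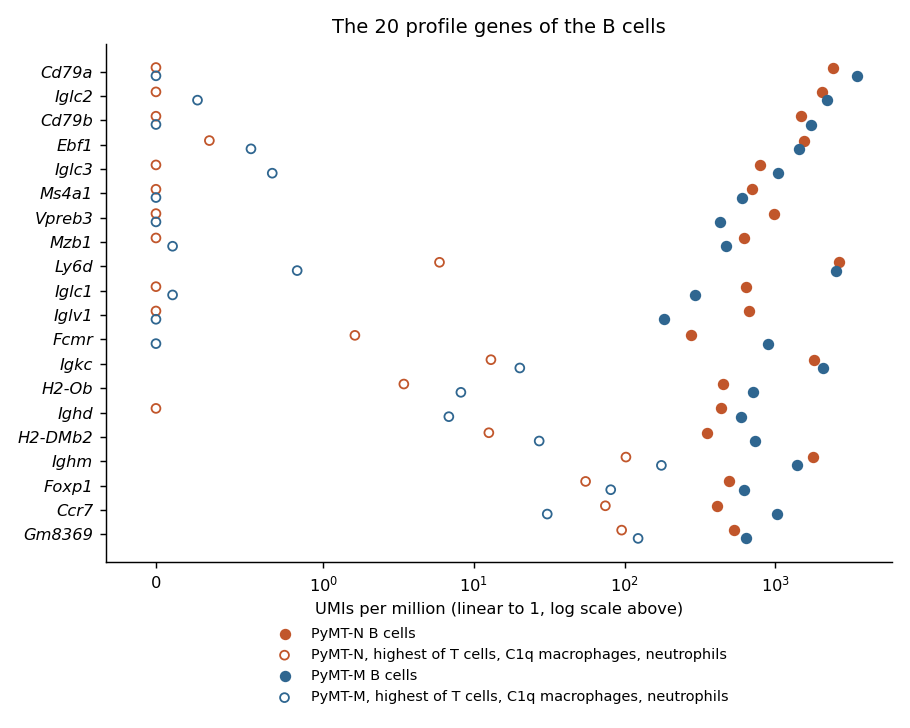
Levels of the 20 profile genes in CPM (horizontal axis, UMIs summed over a class, log scale above 1). Filled points are the B cells of PyMT-N and PyMT-M, and open points the highest of the 3 other classes of the same library. Filled points lie to the right of the open points in every row, which the choice of genes fixes. Ighm, at 1785 CPM in the B cells of PyMT-N and 1396 in those of PyMT-M, has open points at 102 CPM for PyMT-N and 175 CPM for PyMT-M.

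Of the other-cell marker lists, the macrophage list gave the most UMIs in B cells. It held 250 UMIs in 20 of the 60 PyMT-N B cells and 111 UMIs in 31 of the 49 PyMT-M B cells. In PyMT-N, 3 cells stood at or above 50 macrophage UMIs per 10000, and in PyMT-M 2 cells did. The PyMT-N cell with the most UMIs in all, 14457, also held 122 of the macrophage UMIs. The mannose receptor Mrc1 was at 0 in both libraries. The neutrophil list gave 15 UMIs in PyMT-N and 0 in PyMT-M, the T cell list 2 and 0, and the NK cell list 0 and 1. The lists for dendritic cells, tumour cells, stroma and red cells gave at most 13 UMIs in PyMT-N and 6 in PyMT-M.

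A group of PyMT-N B cells had almost no MHC class II RNA. Cd74, H2-Aa, H2-Ab1 and H2-Eb1, the invariant chain and the main antigen-presenting chains, together had a median of 207 UMIs per 10000 in PyMT-N B cells, with a range from 0 to 514. In PyMT-M B cells the median was 308 and the range 124 to 494. The sum lay under 50 per 10000 in 12 of 60 PyMT-N B cells (20%, interval 10.8 to 32.3%). It did so in 0 of 49 PyMT-M B cells (interval 0 to 7.25%). The highest value inside the group was 38.9, and the lowest outside it was 57.2 in PyMT-N and 124 in PyMT-M. The limit of 50 was set after the values had been seen. The median depth was 1879 UMIs in the 12 cells and 1553 in the other 48 PyMT-N cells. The 12 cells held 0 macrophage-list UMIs.

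**Figure D2:**
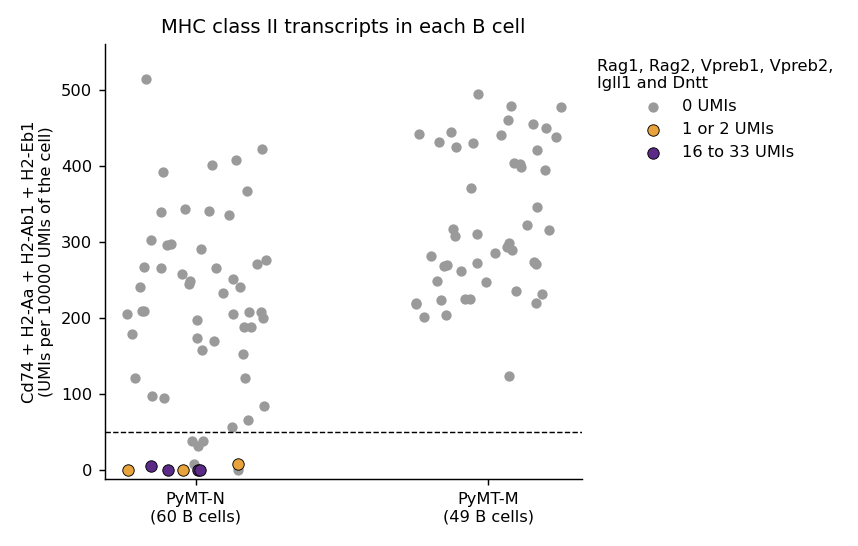
Summed MHC class II UMIs per 10000 UMIs in each B cell, for PyMT-N (left) and PyMT-M (right). Colours give the UMIs of 6 rearrangement and surrogate light chain genes, and the dashed line is the limit of 50. The coloured cells are 7 PyMT-N cells below the line, while the lowest PyMT-M cell lies at 124.

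Igll1, Vpreb1, Vpreb2, Rag1, Dntt and Myb, genes of B cell development, were found in the 12 cells and not in the other 97 B cells. Igll1 gave 33 UMIs in 4 of the 12 cells with low MHC class II, against 0 in the other 48 PyMT-N B cells and 0 in the 49 PyMT-M B cells. Vpreb1, its partner in the surrogate light chain, gave 31 UMIs in 4 of the 12 cells and 0 in both other groups. Vpreb2, a near copy of Vpreb1 whose reads may be shared with it, gave 16 UMIs in 2 of the 12 cells and 0 elsewhere among B cells. Against a floor of 3 UMIs over the other 48 PyMT-N cells, Igll1 was at least 50.5-fold higher and Vpreb1 at least 47.5-fold higher.

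Rag1, the recombinase that cuts the immunoglobulin genes, gave 9 UMIs in 6 of the 12 cells and 0 in the rest. Its partner Rag2 was not seen in any B cell. Dntt, the terminal transferase that adds bases at the joints, gave 5 UMIs in 2 of the 12 cells. Myb, a transcription factor of early blood cells, gave 17 UMIs in 8 of the 12 cells and 0 in the other 97. Il7r, the receptor for the growth factor of B cell precursors, gave 5 UMIs in the 12 cells, 2 in the other PyMT-N cells and 0 in PyMT-M.

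Within the 12 the signal was uneven. The 6 rearrangement and surrogate light chain genes summed to 33, 21, 20 and 16 UMIs in 4 cells, to 2 or 1 UMIs in 3 cells, and to 0 in 5 cells. Of the 4 cells with most such UMIs, 3 held no UMI of Igkc, Iglc1, Iglc2 or Iglc3 and none of a light chain V segment, and the 4th held 12 Igkc UMIs. The other 8 cells all held light chain constant UMIs. Outside the B cells, at least 1 of these UMIs was found in 11 of 4934 PyMT-N cells (0.223%) and 37 of 7308 PyMT-M cells (0.506%), with at most 3 and 2 UMIs in a cell. The highest B cell had 33.

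The genes lie in part side by side. Igll1 (chr16:16860671-16863985, minus strand) and Vpreb1 (chr16:16868403-16870843, minus strand) neighbour each other, and Vpreb2 lies at chr16:17980428-17981273 on the plus strand (GRCm38, GENCODE). Rag1 is at chr2:101638282-101649501 and Myb at chr10:21124935-21160984, both on the minus strand.

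Vpreb3, Cd24a, Ebf1, Spib and Blnk, which act in B cell development, were also higher in the 12 cells than in the other PyMT-N B cells. Of 778 genes with at least 20 UMIs over both groups, 136 (17.5%) were at least 2-fold higher in the 12 cells and 109 (14%) at least 2-fold lower, while 6 of 12 measured B lineage identity genes were higher by that much and 2, Fcmr and Ralgps2, were lower. Vpreb3 was at 4199 CPM in the 12 cells, 289 in the other 48 PyMT-N cells and 428 in PyMT-M B cells. It was seen in 10 of the 12 cells. The 4 cells with most rearrangement and surrogate light chain UMIs held 20, 17, 17 and 12 of its 98 UMIs. Cd24a, a surface protein high on immature B cells, was at 1842, 308 and 326 CPM. Ebf1 was at 3770, 1064 and 1447 CPM. Spib, an Ets factor of B cells, was at 514, 121 and 122 CPM. Blnk, the adaptor that links the receptor to its signals, was at 814, 168 and 285 CPM. For each of these 5 genes the 12 cells stood above both other groups.

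By a rule of size set after the values had been seen, the genes that led the 12 cells over the other PyMT-N cells were Tifa, Pafah1b3, Vpreb3, Arl5c, B3gnt2, Dnajc7, Chchd10, Lgals9, Cd24a, Cnp, Blnk and Tcf3. Tifa, an adaptor of TRAF signalling, gave 19 UMIs in 10 of the 12 cells, against 4 in the other 48, with a log2 ratio of 4.41 (2.86 to 6.46). Tcf3, the E2A factor that acts with Ebf1, gave 12 UMIs in 7 of the 12 cells and 12 UMIs in 12 of the 48.

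On the follicular list 1 of 6 measured genes, Ighd, was at least 2-fold lower in the 12 cells and 0 were higher, a share near that of all genes. Ighd, the delta chain that marks mature naive cells, was seen in 1 of the 12 cells, against 31 of 48 other PyMT-N cells and 29 of 49 PyMT-M cells. Ighm was seen in 12 of 12 cells, 43 of 48 and 44 of 49. Fcer2a, the CD23 receptor of follicular B cells, gave 0 UMIs in the 12 cells, 15 in the other PyMT-N cells and 21 in PyMT-M, too few to set the first 2 groups apart by their counting interval. The limit fixed the low level of Cd74, H2-Aa, H2-Ab1 and H2-Eb1. The other 4 measured genes of the MHC class II list, H2-DMa, H2-DMb2, H2-Oa and H2-Ob, were each at least 2-fold lower in the 12 cells too. H2-DMb2, a peptide-exchange chain, was at 85.7 CPM in the 12 cells and 411 in the other 48.

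**Figure D3:**
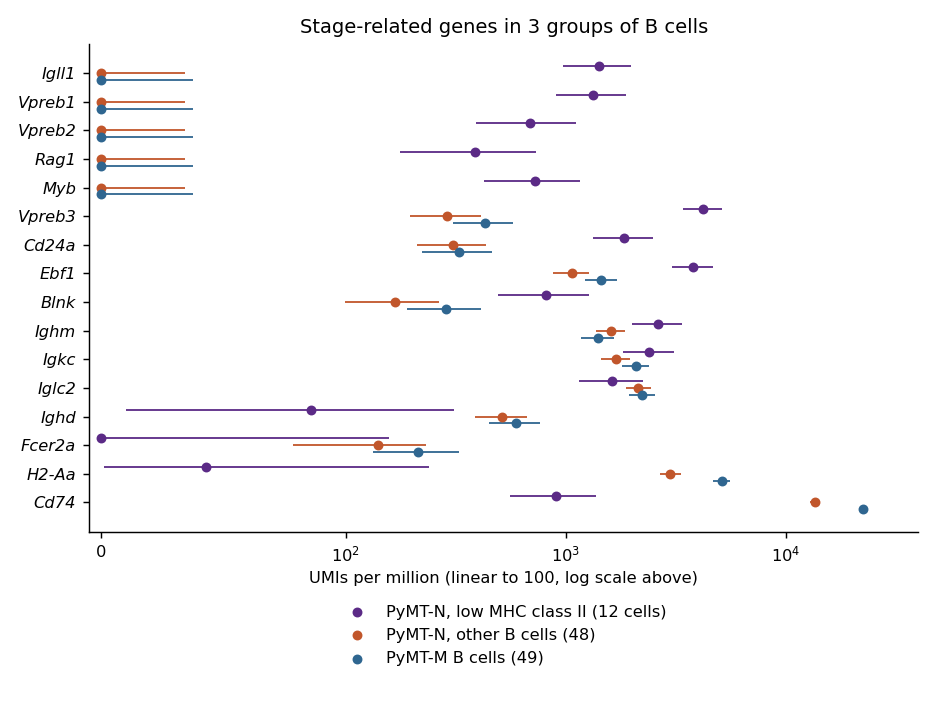
Levels of 16 genes (horizontal axis, CPM, log scale above 100) in the 12 PyMT-N B cells with low MHC class II, the other 48 PyMT-N B cells and the 49 PyMT-M B cells. Points are summed levels and lines exact 95% Poisson intervals. Igll1, Vpreb1, Vpreb2, Rag1 and Myb are above 0 in the 12 cells alone, whereas H2-Aa and Cd74, which set the group, are lowest there.

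A second group was seen in PyMT-N through S100a6, a calcium-binding protein that was a member of the B-1 cell list. S100a6 gave 155 UMIs in 14 of 60 PyMT-N B cells and 2 UMIs in 2 of 49 PyMT-M B cells, a log2 ratio of 5.80 (3.99 to 8.92). It reached 3 or more UMIs in 11 PyMT-N cells (18.3%, interval 9.52 to 30.4%), with 4 to 30 UMIs each, and in 0 PyMT-M cells. Only 1 of these 11 belonged to the 12 cells with low MHC class II. The 11 cells were deeper, with a median of 3976 UMIs, 3 of them were at or above 50 macrophage-list UMIs per 10000, and 5 held a UMI of S100a8 or S100a9. The part of depth and of RNA from other cells in this result was not tested.

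S100a6 is also abundant outside B cells, at 2583 and 1948 CPM in PyMT-N and PyMT-M T cells and at 4431 and 4565 in neutrophils. In the 8 cells left after the 3 with most macrophage RNA were set aside, S100a6 was at 3843 CPM, against 18.1 in 38 other PyMT-N B cells and 20.4 in PyMT-M B cells, a contrast with the 38 that the choice of cells fixed. The 8 cells include the 1 with low MHC class II, whereas the 38 leave out all cells with low MHC class II and those with most macrophage RNA. Further genes were chosen after their values were seen. Crip1 was at 5444, 634 and 754 CPM in these groups, and Vim, the filament protein vimentin, at 1825, 199 and 296. Ahnak, a large membrane scaffold, was at 384, 54.3 and 51.0, from 12, 3 and 5 UMIs. Within the 8 cells a single cell held 57 of 170 Crip1 UMIs, and a single cell held 6 of the 12 Ahnak UMIs. Plac8 was at 833, 272 and 316. All 4 genes were highest in the 8 cells, and in T cells Crip1 was at 3069 and 1612 CPM and Vim at 1936 and 1267 CPM in PyMT-N and PyMT-M. Ighm was at 1857, 1864 and 1396 CPM, whereas Ighd was at 192, 869 and 591 CPM. Of the 9 genes on the B-1 list, Cd5, Spn, Cd9 and Itgam gave no UMI in any of these groups. Zbtb32 gave 3 UMIs and Bhlhe41 1 UMI in the 8 cells, with 0 in both other groups. Anxa2 was at 192, 18.1 and 10.2 CPM, from 6, 1 and 1 UMIs. S100a6 and Ahnak were the list members with at least 20 UMIs over both libraries. The cells are named here by S100a6 only.

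PyMT-M held a single cell with germinal centre genes. With 5330 UMIs it was the deepest PyMT-M B cell, and 8 of the 10 genes on the germinal centre list were seen in it. Mef2b, a factor of germinal centre B cells, gave 8 UMIs there, and S1pr2, the receptor that keeps cells in the germinal centre, gave 3. Rgs13, a regulator of G protein signalling, gave 4 UMIs. These 3 genes gave 0 UMIs in the other 48 PyMT-M B cells and 0 in the 60 PyMT-N B cells. The cell also held 8 Ighg3 and 7 Jchain UMIs, 2 Ighm UMIs, 62 UMIs of the V segment Igkv3-2 and 24 of Ighv3-6. Its cell cycle list gave 55 UMIs, against at most 4 in the other PyMT-M B cells and 15 in a PyMT-N B cell. This cell was picked out after its values had been seen.

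Heavy chain use was otherwise IgM and IgD. Among cells with at least 2 heavy constant UMIs and no tie, Ighm led in 43 of 47 PyMT-N cells (91.5%, interval 79.6 to 97.6%) and in 30 of 39 PyMT-M cells (76.9%, 60.7 to 88.9%). Ighd led in 4 of 47 and in 8 of 39 cells, and Ighg3 in 0 of 47 and 1 of 39. Both Ighm and Ighd were seen in 28 of 60 and 27 of 49 cells. Jchain, the joining chain of secreted IgM and IgA, was seen in 0 of 60 PyMT-N cells (interval 0 to 5.96%) and 1 of 49 PyMT-M cells. Ighm UMIs were also found in 27.5% of PyMT-N T cells and 43.7% of PyMT-M T cells, so a single Ighm UMI does not mark a B cell. Iglc2 was seen in 0 of 657 PyMT-M T cells. The source of the Ighm UMIs in T cells was not tested. Ighd was seen in 0 of 149 PyMT-N T cells and in 20 of 657 PyMT-M T cells (3.04%).

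UMIs assigned to both kinds of light chain were found in most cells. The sources used here do not say how reads of the constant genes were assigned, and V and constant UMIs often pointed to different chains, so the counts describe assigned UMIs and not the chain a cell makes. Among cells with at least 2 light constant UMIs, Igkc (kappa) took over 80% in 6 of 57 PyMT-N cells and 1 of 48 PyMT-M cells, and Iglc1 to Iglc3 (lambda) took over 80% in 20 and 11 cells. The remaining 31 (54.4%, interval 40.7 to 67.6%) and 36 cells (75%, 60.4 to 86.4%) held both. V segments gave another picture: Igkv segments were 30 of 34 called light V segments in PyMT-N and 35 of 36 in PyMT-M. Of the cells with a called Igkv segment, 21 of 30 and 26 of 35 held more Iglc than Igkc UMIs. Iglc2 was seen in 52 of 60 PyMT-N B cells, 46 of 49 PyMT-M B cells and 0 of 149 PyMT-N T cells. Iglc2 and Iglc3 are near-identical copies on chromosome 16 (chr16:19198396-19200351 and chr16:19065230-19065681, both minus strand), so their split is uncertain.

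**Figure D4:**
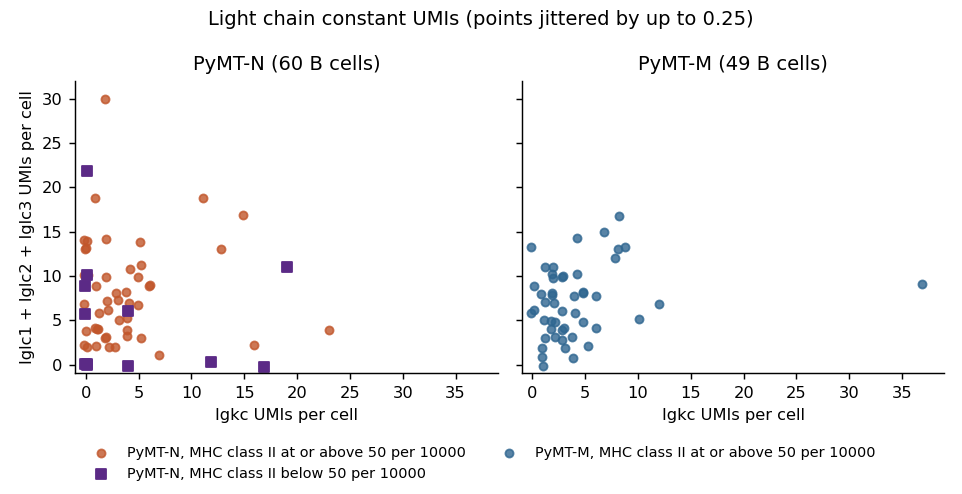
Light chain constant UMIs in each B cell, with Igkc on the horizontal axis and the sum of Iglc1, Iglc2 and Iglc3 on the vertical axis, for PyMT-N (left) and PyMT-M (right). Squares are the 12 PyMT-N cells with low MHC class II, 3 of which lie at 0 on both axes. Most cells of both libraries have UMIs on both axes.

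V segments were varied. An Ighv segment could be called in 10 PyMT-N cells and 18 PyMT-M cells, and these were 8 and 15 different segments. The 34 and 36 called light V segments were 23 and 30 different ones. The most frequent were Igkv9-120 and Iglv1 in PyMT-N, in 4 cells each, and Igkv10-96 in PyMT-M, in 3 cells. A pair of heavy and light segments was called in 5 and 14 cells, and 1 PyMT-N cell and 0 PyMT-M cells repeated a pair of another cell.

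Between the lines, 1441 genes had at least 20 UMIs over the B cells of both libraries. The PyMT-N level was at least double for 123 of them (8.54%), the PyMT-M level for 128 (8.88%), and the median log2 ratio of PyMT-N over PyMT-M was -0.06. Without the 12 cells of low MHC class II, 84 of 1242 genes (6.76%) passed 2-fold toward PyMT-N and 137 (11%) toward PyMT-M. Each list below is read against these shares and that median. A ratio carries a pseudocount of 1 CPM, and a gene counts as past 2-fold in the line where it is higher.

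Antigen presentation genes were lower in PyMT-N B cells. Past 2-fold were 0 of 9 measured MHC class II genes toward PyMT-N and 3 toward PyMT-M, H2-Aa, H2-Oa and H2-DMb2. Their median log2 ratio was -0.66. The list summed to 192 UMIs per 10000 in PyMT-N and 363 in PyMT-M. Cd74 was at 11240 and 22412 CPM, and H2-Aa at 2459 and 5106 CPM. Without the 12 low cells the PyMT-N sum was 230 per 10000, the list median -0.47 and the count of genes past 2-fold 0. The same list ran the same way in C1q macrophages, at 263 per 10000 in PyMT-N and 453 in PyMT-M. Summed over T cells it ran the opposite way, at 29.8 and 5.37, but few T cells carried these UMIs. H2-Aa was seen in 5 of 149 PyMT-N and 51 of 657 PyMT-M T cells, and Cd74 in 19.5% and 22.8%. The MHC class I list had a median of 0.00 with 0 of 9 genes past 2-fold in either direction, and H2-K1, a classical class I heavy chain, was at 1417 and 1508 CPM.

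Of 9 measured genes on the follicular list, 1, Ccr7, was past 2-fold toward PyMT-M and 0 toward PyMT-N, a share near that of all genes. The list median was -0.67, and -0.61 without the 12 cells, where the median of all genes was -0.13. Ccr7, the chemokine receptor that guides lymphocytes into lymph nodes, gave 54 UMIs in 34 PyMT-N cells and 101 UMIs in 35 PyMT-M cells, a log2 ratio of -1.31 (-1.82 to -0.82). Klf2, the factor that drives recirculation, was at 1279 and 2059 CPM. Fcer2a was at 115 and 214 CPM with an interval of the log2 ratio from -1.96 to 0.13. In T cells Ccr7 and Klf2 ran the other way, with log2 ratios of 1.25 and 1.05. On the homing list Cxcr4, the receptor for CXCL12, was also past 2-fold, at 130 and 275 CPM, and the list median was -0.67 over 7 genes.

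Of 19 measured B lineage identity genes, 1 was past 2-fold toward PyMT-N and 6 toward PyMT-M, and the median was -0.37. Fcmr, the receptor for IgM, gave 36 UMIs in 19 of 60 PyMT-N cells and 88 UMIs in 39 of 49 PyMT-M cells, a log2 ratio of -1.70 (-2.30 to -1.13) and of -1.54 without the 12 cells. Bank1, a scaffold of receptor signalling, was at 123 and 296 CPM. Tnfrsf13c, the BAFF receptor that B cells need to survive, was at 115 and 255 CPM, and Cd22, an inhibitory sialic acid receptor, at 115 and 245. Cd180 and Btla were the other 2. Vpreb3 was the gene higher in PyMT-N, at 988 and 428 CPM, and was at 289 without the 12 cells. Pax5, Blk, Ebf1, Pou2af1 and Ly6d had log2 ratios between -0.23 and 0.10, each with an interval that included 0. Without the 12 cells, Ebf1 was at -0.44 (-0.81 to -0.08) and Ly6d at -0.33 (-0.60 to -0.06). The intervals of Pax5, Blk and Pou2af1 still included 0. The list then had 0 of 19 genes past 2-fold toward PyMT-N and 4 toward PyMT-M, with a median of -0.56.

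On the activating list of receptor signalling 0 of 10 measured genes were past 2-fold either way, and the median was -0.11. Without the 12 cells of low MHC class II, 1 of 9 was past 2-fold toward PyMT-M and the median was -0.62. Syk, the kinase that starts the signal, was at 283 CPM in PyMT-N and 245 in PyMT-M. Lyn, a Src kinase with activating and inhibitory roles, was at 245 and 469 CPM. On the inhibitory list 1 of 7 genes, Cd22, was past 2-fold in the direction of PyMT-M, and the median was -0.55. Without the 12 cells that median was -0.76, with 0 genes past 2-fold. Csk, the kinase that restrains Src kinases, was at 253 and 459 CPM.

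Past 2-fold among 18 measured B cell transcription factors were 0 toward PyMT-N and 1 toward PyMT-M, and their median was -0.34. That gene was Irf8, which acts in B cell and myeloid development, with 17 UMIs in 13 PyMT-N cells and 44 UMIs in 21 PyMT-M cells and a log2 ratio of -1.78 (-2.68 to -0.95). A single PyMT-M cell held 13 of the 44. Irf8 was also lower in PyMT-N T cells, with a log2 ratio of -1.40, and in C1q macrophages, with -0.92. Of 3 measured genes on the Toll-like list, Unc93b1, which carries Toll-like receptors to endosomes, was at 184 and 397 CPM, and Cd180 at 53.6 and 143.

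Activation genes did not run in a single direction. Toward PyMT-N 0 of 13 measured members were past 2-fold, toward PyMT-M 2 were, and the median was -0.05. Junb gave 210 UMIs in PyMT-N and 377 in PyMT-M, a log2 ratio of -1.26, and had -1.46 in macrophages and -0.36 in T cells. Cd83, a surface protein of activated B cells, gave 39 and 78 UMIs, a log2 ratio of -1.41, and had 1.84 in T cells. Myc, at 237 and 122 CPM, and Egr1, at 115 and 61.2, leaned toward PyMT-N with intervals that included 0. Without the 12 cells of low MHC class II, Myc was at 280 and 122 CPM, a log2 ratio of 1.19 (0.19 to 2.30). Of 12 members then measured, 1 was past 2-fold toward PyMT-N and 3 toward PyMT-M, and the median was -0.23. Over all B cells, Cd69 was at 215 and 255 CPM. Among cytokines Ltb, the lymphotoxin chain that shapes lymphoid tissue, was at 682 and 1243 CPM, while Il10, a suppressive cytokine of regulatory B cells, gave 0 and 1 UMIs.

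**Figure D5:**
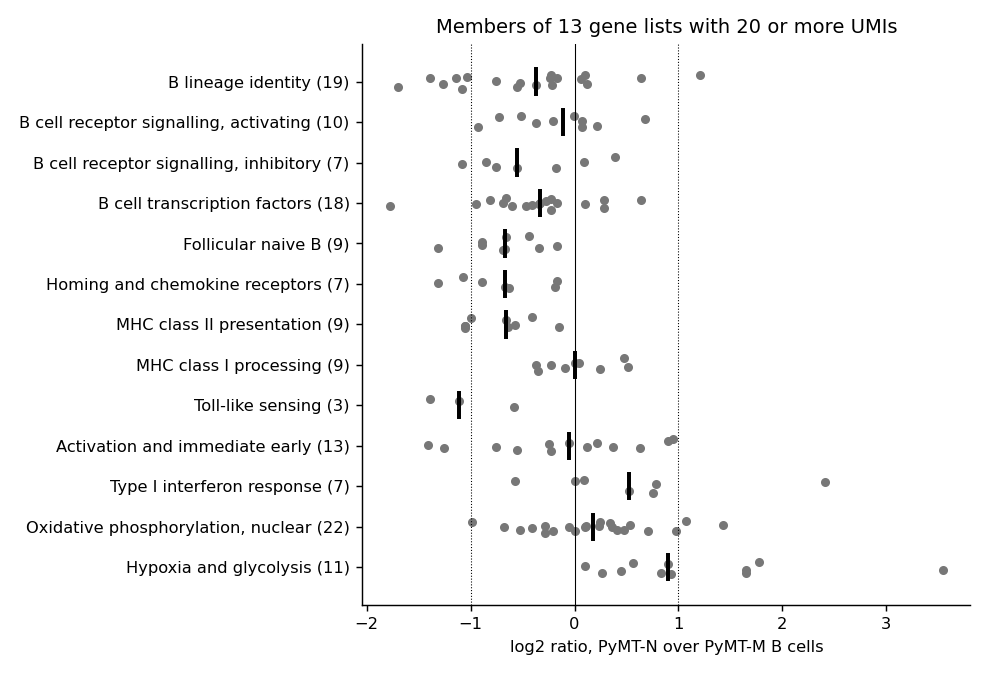
log2 ratio of PyMT-N over PyMT-M B cells for each member of 13 gene lists with at least 20 UMIs over both libraries, with the number of members in brackets. Grey points are genes, black bars list medians and dotted lines mark 2-fold. The medians run from -1.11 for Toll-like sensing to 0.90 for hypoxia and glycolysis.

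Glycolysis genes were higher in PyMT-N B cells when all cells were summed. Of 11 measured genes on the hypoxia and glycolysis list, 4 were past 2-fold toward PyMT-N and 0 toward PyMT-M, and the median was 0.90. The list rested on few cells: without the 3 PyMT-N and 2 PyMT-M cells with most macrophage RNA its median was -0.12, and without the deepest cell of each library 0.35. Gapdh, a glycolytic enzyme, gave 172 UMIs in 41 of 60 PyMT-N cells and 11 UMIs in 8 of 49 PyMT-M cells, a log2 ratio of 3.54 (2.68 to 4.58). The deepest PyMT-N cell held 84 of the 172, and the other 59 held 88, against 8 UMIs in 48 PyMT-M cells without their deepest. Gapdh was higher in PyMT-N in T cells and macrophages as well, with log2 ratios of 1.82 and 2.59. Mif gave 96 and 21 UMIs, Eno1 42 and 10, and Bnip3 17 and 4, and single PyMT-N cells held 38, 21 and 11 of these.

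Interferon-stimulated genes gave no uniform difference. Of 7 measured genes on the type I interferon list, 1 was past 2-fold toward PyMT-N and 0 toward PyMT-M. The median was 0.52, and 0.0033 when genes with 10 UMIs were admitted. Ifi27l2a, a mitochondrial interferon-induced protein, gave 298 UMIs in 45 PyMT-N cells and 130 in 29 PyMT-M cells, a log2 ratio of 0.78 (0.48 to 1.09). Ifitm3, which blocks viral entry, was the gene past 2-fold, but 26 of its 36 PyMT-N UMIs were in a single cell. The whole list summed to 45.6 UMIs per 10000 in PyMT-N B cells and 34.4 in PyMT-M B cells, a log2 ratio of 0.40 (0.21 to 0.60). With Ifi27l2a left out, the list stood at 22.8 UMIs per 10000 in PyMT-N B cells (20.2 to 25.5) and 21.2 in PyMT-M B cells (18.4 to 24.3). In T cells it stood at 18.3 and 38.5, and in C1q macrophages at 26.6 and 55.5. Without Ifi27l2a the counting intervals of the B cells of both lines overlapped. Whether B cells differ from T cells and macrophages in this list was not tested.

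Stress and housekeeping lists were close to level or mixed. The nuclear oxidative phosphorylation list had 2 of 22 genes past 2-fold in PyMT-N, Ndufa1 and Uqcrq, and a median of 0.17. Of 80 measured ribosomal protein genes 2 were past 2-fold toward PyMT-N and 0 toward PyMT-M, and the median was 0.07. The heat shock and dissociation list had 2 genes past 2-fold in PyMT-N and 1 in PyMT-M among 10. Of 3 measured genes on the survival list, 1 was past 2-fold toward PyMT-N and 1 toward PyMT-M, and the median was -0.41. The gene higher in PyMT-N was Mcl1, an anti-apoptotic protein B cells depend on. Mcl1 was seen in 25 PyMT-N cells at 368 CPM and in 8 PyMT-M cells at 102 CPM, a log2 ratio of 1.84. Its log2 ratio was 0.15 in T cells and 0.30 in macrophages. No member of the costimulation and interferon gamma lists reached 20 UMIs, and the memory, marginal zone and Tbx21 lists had 1 measured gene each.

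By the rule for named genes, 65 genes qualified as higher in PyMT-N B cells and 102 as higher in PyMT-M B cells, and the 12 with the largest ratio were taken each way. Those higher in PyMT-N were Atp1b1, Mpc2, Tifa, Nhp2, Ddx3x, Fam129c, Dnajc7, Nme2, Stambpl1, Sec11a, Snrpf and Matr3, with log2 ratios from 1.65 to 4.27. Several of these rested on the 12 cells of low MHC class II: without them 4 of the 12 genes kept 20 UMIs, of which 3 were past 2-fold, and over all 12 genes 4 had ratios under 2-fold. Atp1b1, the beta subunit of the sodium pump, gave 28 UMIs in 10 PyMT-N cells and 1 UMI in 1 PyMT-M cell, and 3 UMIs without the 12 cells. Tifa gave 23 UMIs in PyMT-N and 3 in PyMT-M, and 4 without the 12 cells. Fam129c and Stambpl1 gave 5 and 7 UMIs in the other 48 cells and 3 and 4 in PyMT-M. Dnajc7, a co-chaperone, gave 114 UMIs in 34 PyMT-N cells and 19 in 15 PyMT-M cells, a log2 ratio of 2.17 (1.46 to 2.96), which was 0.98 without the 12 cells of low MHC class II. Snrpf, a core protein of the spliceosome, gave 64 UMIs in 37 cells and 15 UMIs in 11 cells, with 1.67 and with 1.42 without the 12. Nme2, a nucleotide kinase, had 2.12 in B cells and also 1.71 in T cells and 1.65 in macrophages.

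Those higher in PyMT-M were Tbc1d10c, Rflnb, Kif21b, Mat2b, Tsc22d3, Dnajc9, Acin1, Tspan32, Pcif1, Swap70, Irf8 and Il2rg, with log2 ratios from -2.15 to -1.75. Without the 12 cells 10 of them kept 20 UMIs, and all 10 were past 2-fold. Tsc22d3, the glucocorticoid-induced leucine zipper protein, gave 62 UMIs in 38 of 60 PyMT-N cells and 178 UMIs in 45 of 49 PyMT-M cells, a log2 ratio of -1.93 (-2.37 to -1.51) and of -2.08 without the 12 cells. It was lower in PyMT-N macrophages too, at -1.58, and in T cells at -0.44. Il2rg, the common chain of several interleukin receptors, gave 24 UMIs in 18 cells and 61 UMIs in 32 cells. Tbc1d10c, an inhibitor of calcineurin and Ras signalling, gave 8 UMIs in 6 cells and 27 UMIs in 21 cells. Swap70, a B cell protein that acts on the Rac switch, gave 8 UMIs in 8 cells and 21 UMIs in 19 cells.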

How the data were processed

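The authors deposited raw UMI counts per gene and barcode for each of the 2 libraries, with no normalisation. The matrices name software version 3.1.0, per the file headers, and Cell Ranger, Seurat and build mm10 were used, per the submitters' processing notes, whose versions are not given in the sources used here. A minimum of 200 genes and a maximum of 10% mitochondrial UMIs per barcode removed 26 in PyMT-N and 119 in PyMT-M. UMIs were summed over the B cells of a library and expressed as CPM (per 1000000) or per 10000.

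Gene ratios have exact conditional binomial intervals, sums exact Poisson intervals and shares exact Clopper-Pearson intervals, at 95%. They cover counting error only. A gene was measured with at least 20 UMIs over both sums and called past 2-fold. Shares at 0 carry the same Clopper-Pearson interval. Up to 12 named genes per direction were those of largest ratio past 2-fold with 50 CPM and 5 cells in the higher library, at least 3 times the UMIs of their highest cell, and at least 0.5 times the CPM of every other class there. Predicted genes and those of haemoglobin, ribosomes, mitochondria, immunoglobulins and T cell receptors could not be named. The 20 profile genes needed 100 UMIs over both libraries and 50 CPM in each, and were ranked by their smaller ratio over the highest other class. Up to 4 members per list were named by level and ratio, and further members were chosen after their values were seen, as were the groups by MHC class II and S100a6 and the germinal centre cell. Heavy classes, light chains and V segments needed 2 UMIs, and a V segment over 80%.

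Doublets were not removed. Scrublet, run through scanpy 1.11.5, marked 0 cells by its own threshold in either library and so did not work. An alternative removed its 201 and 440 highest scores, which held 0 B cells. The members and lists were chosen with earlier results of these data known. The ratio statistics were tested on simulated data. Python 3.11.15, numpy 2.4.6, scipy 1.17.1, pandas 2.3.3 and matplotlib 3.10.9 were used. The lists also hold members that are not reported here.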

Additional observations from a re-analysis of the deposited data

How the results depend on the processing

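No paired analysis was possible because there is 1 library per line and no test was made. The alternatives without the cells of low MHC class II, without cells with macrophage RNA and without the deepest cell of each library were chosen after seeing the data. The B cell share of PyMT-N was 0.822% with a mitochondrial limit of 5%, 0.641% when each of Cd79a, Cd79b and Ms4a1 had to be seen, and 2.95% of cells below the S100a8 and S100a9 limit. The share of PyMT-M was 0.353% when each marker had to be seen, and Ighm then led in 90% of its cells. Genes past 2-fold in PyMT-N numbered 57 when each marker had to be seen, 330 with a minimum of 10 UMIs and 29 with 50 UMIs. Genes past 2-fold in PyMT-M numbered 372 and 33 with 10 and 50 UMIs. The number of genes measured changed with each of these settings, so these counts cannot be set as shares beside the main 123 and 128. The MHC class II median was -0.88 with the limit of 5%, -0.82 with at least 5 marker UMIs, -0.83 with 10 or 50 UMIs per gene and -0.47 without the 12 cells. With each marker seen, the follicular median was -0.33, the interferon median 0.27 and the hypoxia and glycolysis median -0.42. With no C1q UMI and a stricter S100a8 and S100a9 limit, the interferon median was 0.87 and the hypoxia and glycolysis median 0.12. As a mean over cells these were 0.24 and 0.42. The interferon median was 0.0033 with 10 UMIs, and the hypoxia and glycolysis median -0.12 without cells with macrophage RNA and 0.35 without the deepest cells. The causes were not tested, beyond the fewer cells or genes each alternative leaves. The 24 named genes gave 233 values under the alternatives that left them measured, all of the main sign, and 3 of them left the main interval. A further 79 values were missing because the gene was no longer measured. The genes were picked for large ratios in these same cells, which favours a kept sign. The low MHC class II cells in PyMT-N numbered 8 with the limit of 5%, 10 with at least 5 marker UMIs, 3 with each marker seen and 12 with the stricter limits, and PyMT-M had 0 under each of these. With 109 shallow cells, genes under about 20 UMIs were beyond reach.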
